A study of Rattus norvegicus with 84 samples.

Results

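Messenger RNA of 10 S100 and annexin genes was followed in extracellular vesicles (EVs) from the brain and the plasma of rats after ischemic stroke. They were 5 S100 genes (S100a1, S100a4, S100a6, S100a10 and S100a11) and 5 annexin genes (Anxa1, Anxa2, Anxa3, Anxa5 and Anxa6). These 10 of 18782 annotated genes of the deposited count table were chosen from earlier results of the same data across all 7 groups, so their levels and calls below are a description of these libraries and no independent evidence that the families respond. The 12 other S100 and annexin genes of the table are described only where they differ from the 10.

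All rats were wild type. Stroke was induced in 18 male Sprague-Dawley rats, 8 to 12 weeks old, by a 90 min transient occlusion of the right middle cerebral artery. On day 3 they received saline (control) or 200000 human neural stem cells (hNSCs) through the re-exposed carotid artery, and 3 control and 3 hNSC rats were examined at each of days 4, 10 and 31 after stroke. The remaining group consisted of 3 healthy rats, whose sex, strain and age are not given in the sources used here, and each of the 21 rats contributed 1 brain library and 1 plasma library. Brain EVs came from the enzymatically dissociated frozen right hemisphere, the side of the infarct, without separation by cell of origin, and EVs from blood were enriched by size exclusion chromatography. None of the 7 groups was a sham operation, so the infarct and the surgery cannot be told apart in a difference between healthy and control rats.

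S100 proteins are small EF-hand proteins, and most of them change shape when they bind calcium and then dock onto partner proteins. Annexins bind negatively charged phospholipids in a calcium-dependent manner and take part in membrane traffic, membrane repair and vesicle release. The families meet in fixed complexes: S100A10 pairs with annexin A2 at the cell surface, where it binds plasminogen, and S100A11 binds annexin A1. In the injured nervous system several of these genes are known from reactive glia, phagocytes and fibroblasts.

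Promoter sequences of 7 of the 10 genes were found in the RefSeq table for the rat assembly GRCr8, and short stretches are shown because they carry the core elements in which the genes differ. A TATA box (TATAAA, either strand, within 250 bases upstream of the start) was present in 3 of the 7 promoters, against 12.9% of 33469 rat promoters. The stretches for S100a4 (chr2:178388486-178388515, plus strand), Anxa1 (chr1:227303761-227303790, minus strand) and Anxa2 (chr8:78986195-78986224, plus strand) have the box in capitals, starting 31, 46 and 45 bases before the start. The AP-1 element of Anxa2 (TGANTCA, a palindrome, so both strands are read at once; chr8:78986118-78986146, plus strand) starts 123 bases before the start and is also in capitals.
S100a4 TATA box: ggcatggcagggTATAAAtaggtcagattg
Anxa1 TATA box: cagttcatatccTATAAAatcaggagtcca
Anxa2 TATA box: ggatggggcggaTATAAAagccccacccag
Anxa2 AP-1 element: tccaagttgggTGAGTCAcccagcagggt
The AP-1 letters occurred in 1 of the 7 promoters, against 6.34% of all promoters. A GC box (GGGCGG, either strand) was found in 5 of the 7, those of Anxa2, Anxa3, Anxa5, S100a6 and S100a11, against 30.5% of all. The letters CCAAT, on either strand, were found in 0 of the 7, against 34.0% of all. These are matches of letters only.

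Depth differed strongly between libraries and limits what can be said of the brain. Brain libraries held 13221461 to 37651652 counts, of which 3.18% to 51.9% fell on annotated genes (569136 to 15587216 counts). Plasma libraries held 6357675 to 31028559 annotated counts, 45.1% to 75.6% of their totals. The annotated share of brain libraries moved with the groups: it was 7.11% to 20.9% in healthy rats, 22.0% to 25.3% in control rats at day 4, 11.3% to 13.4% at day 10 and 30.3% to 43.0% at day 31, and it was lowest, at 3.18% to 16.9%, in hNSC rats at day 10. Between 3 and 10 of the 10 genes had at least 1 count in a brain library and 9 or 10 in a plasma library. Only in the deep day 31 brain libraries were all 10 detected in each of the 6 rats, whereas healthy rats had 4 to 7 and hNSC rats at day 10 had 3 to 6.

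**Figure D1:**
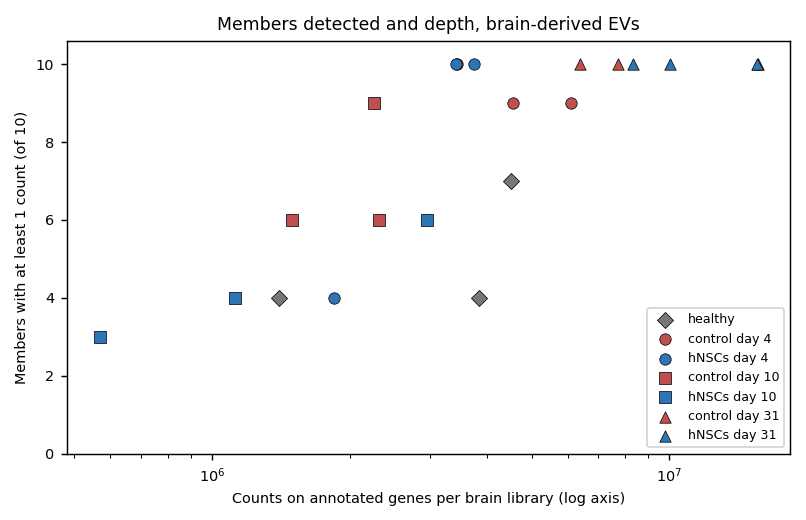
Each symbol is 1 of the 21 brain libraries; the x axis gives its counts on annotated genes (log axis) and the y axis how many of the 10 genes had at least 1 count, with colours and shapes for the 7 groups. The 6 day 31 libraries all held the 10 genes, and the library with 569136 annotated counts held 3.

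In brain EVs of healthy rats, the genes fell into a set with 0 or few counts and a set detected in every library. S100a4, S100a11 and Anxa1 had 0 counts in all 3 healthy libraries, which allows up to 3 counts over the group, or 0.308 CPM (counts scaled to a fixed total of annotated counts per library, with TMM factors). S100a6, S100a10 and S100a1 had counts only in healthy rat 2, with 4, 23 and 20 counts. The annexins Anxa2, Anxa3, Anxa5 and Anxa6 were detected in every healthy rat, with means of 11.9, 23.9, 34.5 and 123 CPM.

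At day 4, the control rats carried S100a4, S100a6, S100a10, S100a11 and Anxa1 in every brain EV library. S100a11, the annexin A1 partner, was at 69.0, 42.6 and 19.5 CPM in the 3 control rats and at 0 in the 3 healthy rats, so the lowest control rat stood above every healthy one. Taken over the group, this was at least 146-fold higher (a pooled ratio of annotated counts without TMM factors, against 3 counts over the healthy group), a bound that was 94.6 without control rat 1, 78.7 without healthy rat 2 and 88.8 without healthy rat 3. S100a11 was the 1 member of 10 called (edgeR quasi-likelihood test, adjusted p = 0.0317, called at an adjusted p under 0.05 and over 1.5-fold), where 0.861% of all 14515 genes tested were called.

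S100a4, a gene known from fibroblasts and macrophages, was at 55.2, 28.6 and 15.2 CPM in control rats at day 4, at least 112-fold above the healthy floor (edgeR adjusted p = 0.0941). Anxa1, an anti-inflammatory ligand of formyl peptide receptors, was at 64.4, 47.3 and 3.90 CPM, at least 127-fold above the floor (edgeR adjusted p = 0.0959). Without control rat 1, healthy rat 2 or healthy rat 3 these bounds were 67.4, 60.4 and 68.1 for S100a4 and 71.8, 68.4 and 77.2 for Anxa1. For both genes every control rat was above every healthy rat, but neither passed the threshold. S100a6 (calcyclin) was at 52.4, 45.0 and 6.06 CPM against 0, 0.886 and 0 in healthy rats, a log2 difference of 6.54 with an SE of 2.07 (edgeR adjusted p = 0.135).

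The pair S100a10 and Anxa2 showed the same picture on different base levels. S100a10 was at 75.7, 33.6 and 12.6 CPM at day 4 and at 0, 5.09 and 0 CPM in healthy rats, a log2 difference of 4.46 with an SE of 1.83 (edgeR adjusted p = 0.24). Anxa2 was at 169, 46.8 and 42.01 CPM against 18.7, 9.08 and 7.88 CPM, a log2 difference of 2.88 with an SE of 1.28 (edgeR adjusted p = 0.28). Control rat 1 was the highest of its group for both, and for S100a4, S100a6, S100a11 and Anxa1 as well.

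The annexins that healthy brain EVs already carried differed less. Anxa3, which is expressed in neutrophils and in activated microglia, was at 131, 118 and 34.2 CPM at day 4 against 45.3, 12.4 and 14.1 CPM, and the groups overlapped through healthy rat 1. Anxa5, the phosphatidylserine binder used to detect dying cells, was at 118, 44.1 and 58.0 CPM against 24.4, 39.6 and 39.4 CPM, a log2 difference of 1.08 with an SE of 0.53. Anxa6, the large annexin with a duplicated core, had means of 132 ± 41.9 (SD, n = 3) and 123 ± 11.6 CPM, a log2 difference of 0.11 with an SE of 0.39. S100a1, best known from heart muscle and neurons, was found in 1 of 3 control rats, at 34.8 CPM.

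Over the 10 genes at day 4, 10 of 10 differences were positive, with a median log2 difference of 3.67 against 0.05 over all genes tested (also 3.67 with the 3 genes at 0 in healthy rats set to their lower bounds), and 7 of 10 had an unadjusted edgeR p under 0.05, as had 14.8% of all genes. The 3 genes at 0 in healthy rats could not have a negative difference, so the count of signs was partly fixed in advance. They passed the filter on low counts only through other groups. In 7 of 10 every control rat stood above every healthy rat, where 13.9% of all genes did so. The call of S100a11 ended when healthy rat 1, 2 or 3 or control rat 1 or 2 was left out (edgeR adjusted p = 0.0659 to 0.164) and held without control rat 3 (adjusted p = 0.0441) and without the 5 brain libraries under 2000000 annotated counts (edgeR adjusted p = 0.0398, a choice made after seeing the data). DESeq2 called 4 of the 10, S100a4, S100a6, S100a11 and Anxa1, at a background of 6.01%, and limma on log2(FPKM + 1) also called 4, S100a4, S100a6, S100a10 and S100a11, at 1.75%.

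**Figure D2:**
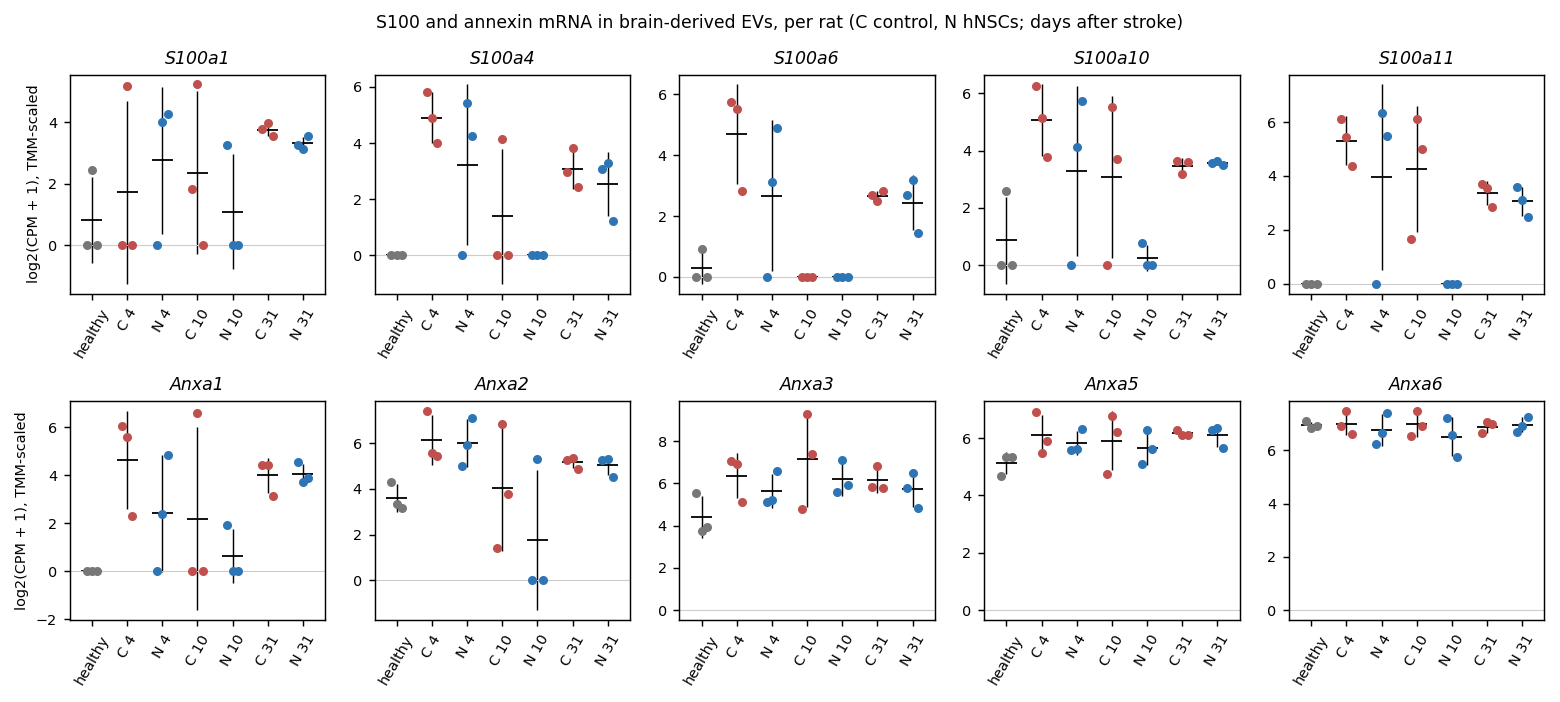
Each panel is 1 gene in brain-derived EVs; points are rats, the y axis is log2(CPM + 1), C and N mark control and hNSCs with the day, and lines and whiskers are the mean and SD of 3 rats. S100a4, S100a11 and Anxa1 lie at 0 in the 3 healthy rats and above 0 in the 3 control rats at day 4, while Anxa6 lies between 52.8 and 179 CPM in every library.

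At day 10, the control rats were spread widely. S100a11 was at 2.13, 68.1 and 31.3 CPM, at least 106-fold above healthy over the group, and was again the 1 member called (edgeR adjusted p = 0.0477), with 0.572% of all genes called. The bound was 44.2 without control rat 2, 166.5 without control rat 1, 56.8 without healthy rat 2 and 64.1 without healthy rat 3. Anxa3 was at 26.4, 635 and 168 CPM, its highest level in any brain library, a log2 difference from healthy of 3.57 with an SE of 0.85 (edgeR adjusted p = 0.0553). Anxa1 was at 0, 95.1 and 0 CPM and S100a4 at 0, 16.8 and 0 CPM. S100a6, which had been present in every control rat at day 4, had 0 counts in all 3 rats at day 10.

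Control rat 2 was the highest of its group at day 10 for each of the 9 genes with counts. Of the 10 differences from healthy, 9 were positive with a median log2 difference of 3.20 against 0 over all genes, 4 had an unadjusted edgeR p under 0.05 (12.7% of all genes), and S100a11 was the 1 gene with no overlap (7.05% of all genes were above without overlap). For S100a4, S100a11 and Anxa1, at 0 in healthy rats, the sign could not be negative. The call of S100a11 held without control rat 1, where Anxa1 and Anxa3 were called too (3 members), and ended without control rat 2 or 3 or any 1 healthy rat (edgeR adjusted p = 0.0656 to 0.273). DESeq2 called 4 members, S100a4, S100a11, Anxa1 and Anxa3, at a background of 4.44%, whereas limma called 0, and edgeR called 0 without the 5 libraries under 2000000 annotated counts (adjusted p = 0.0844 for S100a11).

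At day 31, 4 of the 5 S100 genes and all 5 annexins were at lower mean CPM in control rats than at day 4. The exception was S100a1. The means of Anxa3, Anxa5 and Anxa6 went from 94.6, 73.4 and 132 CPM to 74.3, 70.9 and 119 CPM. S100a11 was at 11.8, 10.8 and 6.15 CPM, at least 34.2-fold above healthy, S100a4 at 6.84, 13.2 and 4.42 CPM, at least 26.1-fold, and Anxa1 at 20.6, 20.3 and 7.89 CPM, at least 58.8-fold. These bounds were 18.4, 14.04 and 31.6 without healthy rat 2 and 20.7, 15.8 and 35.6 without healthy rat 3. S100a10 was at 11.5, 8.05 and 11.2 CPM and S100a6 at 5.49, 4.62 and 5.99 CPM. Anxa2 was at 37.1, 39.9 and 28.4 CPM, Anxa3 at 55.9, 112 and 54.6 CPM and Anxa5 at 76.6, 67.9 and 68.1 CPM. All 3 rats were above all healthy rats for 9 of the 10 genes, all but Anxa6, where 18.9% of all genes showed this.

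No member passed the threshold at day 31 (0 of 10 by edgeR, with 0.00689% of all genes called), 4 of 10 had an unadjusted p under 0.05 (7.14% of all genes), and the median log2 difference was 2.73 against 0.24 over all genes. DESeq2 called 2, S100a11 and Anxa1, at a background of 1.25%. limma on log2(FPKM + 1) called all 10, but on that scale 57% of all genes were called and the median gene was 0.69 higher at day 31 than in healthy rats.

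Between control groups, 0 of 10 members were called from day 4 to day 10 (0% of all genes) and 0 of 10 from day 4 to day 31 (0.248% of all genes) by edgeR. S100a6 was the member that separated days 4 and 10, being above 0 in every rat at day 4 and at 0 in every rat at day 10, with an unadjusted edgeR p of 0.00118 and an adjusted p of 0.687. Of all 14515 genes, 718 were below day 4 without overlap at day 10. DESeq2 called S100a6, as it did 0.585% of all genes, and limma on log2(FPKM + 1) called none. At day 31, S100a4, S100a6, S100a10, S100a11 and Anxa2 (5 of 10, against 10.1% of all genes) were below day 4 in every rat, with fitted log2 differences of -2.01, -2.68, -1.99, -2.18 and -1.29 and SEs of 1.196 to 1.78. None of the 10 had an unadjusted edgeR p under 0.05 in that comparison, DESeq2 called 0, and limma on log2(FPKM + 1) called 1, S100a1, which it put higher at day 31, on a scale where it called 28.1% of all genes and the median gene was 0.42 higher at day 31. On that scale all 5 annexins were fitted higher at day 31, by 0.01 (Anxa2) to 0.86 (Anxa5), where edgeR put them lower.

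Markers of several cell types were higher along with the S100 genes in brain EVs of control rats. Of the 6 macrophage markers, 5 were tested, and Gpnmb and Lgals3 were called higher than healthy at days 4 and 10 and none at day 31 (2 of the 5 had an unadjusted edgeR p under 0.05). The summed level of the 6 was 0 to 10.63 CPM in healthy rats, 276 to 882 in control rats at day 4, 31.96 to 1163 at day 10 and 42.7 to 126 at day 31, and in hNSC rats at day 10 it was 0 to 232. Lgals3 and Cd14 were at 0 in healthy rats and in hNSC rats at day 10, as were S100a4 and S100a11, and Ms4a7 was at 0 in healthy rats and in control rats at every day. By rat, the sum was 882, 739 and 276 CPM in control rats 1 to 3 at day 4 and 31.96, 1163 and 259 CPM at day 10, the highest sums being those of control rat 1 at day 4, which was also highest for S100a4, S100a6, S100a10 and S100a11, and of control rat 2 at day 10, also highest for S100a1, S100a4, S100a10 and S100a11. In hNSC rats the levels did not go together in this way throughout: rat 1 at day 4 had a sum of 319.6 CPM and rat 2 at day 10 of 232 CPM, and both had 0 counts for all 5 S100 genes.

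The astrocyte markers summed to 1156 to 1246 CPM in healthy rats, 3242 to 3576 at day 4, 2427 to 3749 at day 10 and 3607 to 4755 at day 31. Gfap, the astrocyte filament gene, was the 1 of these 6 called on each day, with log2 differences of 2.25, 1.99 and 2.50 (edgeR adjusted p = 0.011, 0.0129 and 0.00591), and it was the 1 gene of all 14515 called at day 31. The summed level of the microglial markers was 55.4 to 76.9 CPM in healthy rats and 246 to 493 in control rats at day 4, and 0, 2 (C1qa and Csf1r) and 0 of the 6 were called at days 4, 10 and 31. The fibroblast or meningeal list summed to 346 to 413 CPM in healthy rats and 1138 to 2363 at day 4, with 0 of 6 called at any day by edgeR and 5 of 6 at an unadjusted p under 0.05 at day 4. By rat, the microglial sum was 493, 308 and 246 CPM in control rats 1 to 3 at day 4. At day 10 it was 133, 1190 and 459 CPM. The fibroblast or meningeal sum was 2363, 1677 and 1138 CPM at day 4 and 400, 3029 and 1729 CPM at day 10. The highest rats were the same as for the macrophage markers. All 6 neutrophil markers were at 0 in healthy brain EVs and in control rats at day 10, and 5 of 6 were at 0 at day 4, when the list summed to at most 8.93 CPM. The part of any of these cells in the levels of the S100 and annexin genes was not tested, and more vesicles from a cell type cannot be told apart from more RNA per vesicle. Of 10 partners and receptors, 8 were tested, and Ahnak, the giant scaffold that S100A10 and annexin A2 bind, was called at day 4 (log2 difference 2.10, SE 0.47, edgeR adjusted p = 0.032), from a mean of 206 to 879 CPM. Of 10 membrane repair genes and 7 EV protein genes, 0 were called against healthy at any day in brain EVs by edgeR, and at most 1 of each list had an unadjusted p under 0.05.

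Treatment with hNSCs was compared with saline at each day. At day 4, S100a11 was at 0, 80.2 and 44.2 CPM in hNSC rats, S100a4 at 0, 42.4 and 17.98 CPM, and Anxa2 at 30.6, 59.7 and 134 CPM, so both S100 genes had 0 counts in rat 1 and were present in the other 2. The library of rat 1 held fewer than 2000000 annotated counts. No member was called (0 of 10, 0% of all genes), 0 had an unadjusted edgeR p under 0.05, and DESeq2 and limma called 0.

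At day 10, most of the S100 transcripts were not detected in the brain EVs of hNSC rats. S100a4, S100a6 and S100a11 had 0 counts in all 3 rats, S100a10 was at 0.710, 0 and 0 CPM and Anxa1 at 2.84, 0 and 0 CPM. S100a6 had 0 counts in all 3 control rats of that day too. S100a1 was found in 1 of 3 hNSC rats, at 8.52 CPM, and in 2 of 3 control rats. S100a11 was at least 50.5-fold and S100a4 at least 9.18-fold higher in control rats, measured against a floor of 3 counts over the hNSC group, or 0.645 CPM. The S100a11 bound was 21.1 without control rat 2, 79.6 without control rat 1 and 18.4 without hNSC rat 1. All 36 counts of S100a4 in control rats came from rat 2, so no bound remained without it, and the bound was 14.8 without control rat 1 and 3.34 without hNSC rat 1. For S100a11 every hNSC rat was below every control rat, as for 7.06% of all genes. Anxa3 was at 46.5, 139 and 60.3 CPM, Anxa5 at 33.0, 77.2 and 48.2 CPM and Anxa6 at 149.5, 95.0 and 52.8 CPM, so these 3 annexins were present in each hNSC rat. Anxa2, which had counts in every healthy rat, was at 0, 38.2 and 0 CPM.

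By edgeR 0 of 10 members were called at day 10 (0% of all genes), with an adjusted p of 0.187 for S100a11, and 5 of 10 had an unadjusted p under 0.05 (13.4% of all genes): S100a4, S100a10, S100a11, Anxa1 and Anxa3. DESeq2 called 1, S100a11, at a background of 4.51%, and limma 0. The 3 hNSC libraries were the group with the lowest annotated share, 2 of them held under 2000000 annotated counts, and the median gene was lower by a log2 difference of -0.34.

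At day 31, the ranges of both arms overlapped for all 10 genes. S100a11 was at 10.96, 7.56 and 4.60 CPM in hNSC rats, S100a10 at 10.9, 11.4 and 10.2 CPM and Anxa1 at 22.4, 12.3 and 13.8 CPM. Fitted log2 differences lay between -0.49 (S100a1) and 0.08 (S100a10), with SEs of 0.39 to 2.09, so changes of several-fold in the S100 genes could not have been detected. No member was called by edgeR, DESeq2 or limma (0 of 10, 0% of all genes), and 0 had an unadjusted p under 0.05.

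The difference between hNSC and control rats was also compared between days. In brain EVs 0 of 10 members were called for any of the 3 pairs of days by edgeR (0% of all genes in each pair), and 3 of 30 tests had an unadjusted p under 0.05: S100a11 between days 10 and 4 and between days 31 and 10, and S100a10 between days 31 and 10. DESeq2 called S100a11 in both of its pairs (adjusted p = 0.0148 and 0.0298), where it called 2.85% and 1.56% of all genes. The hNSC group at day 10, in which S100a11 had 0 counts, enters both of these pairs.

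In plasma EVs the same genes were abundant in every group. In healthy rats, S100a10 was at 349, 283 and 418 CPM, Anxa2 at 414, 258 and 638 CPM, S100a11 at 316, 119 and 282 CPM and Anxa1 at 275, 489 and 112 CPM. S100a6 was at 169.6, 252 and 214 CPM, S100a4 at 149, 194 and 243 CPM and Anxa6 at 207, 108 and 288 CPM. S100a1 was the exception, at 13.7 to 25.8 CPM in healthy rats and at 0 in 5 of the other 18.

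At day 4, S100a6 was the member that stood out, at 470.1, 788 and 487 CPM in control rats, above every healthy rat, with a log2 difference of 1.46 and an SE of 0.57 (edgeR adjusted p = 0.742). S100a10 was at 442, 546 and 511 CPM, also above every healthy rat, with a log2 difference of 0.51 and an SE of 0.36. Anxa1 was at 577, 465 and 829 CPM and Anxa2 at 381, 1286 and 472 CPM, and both overlapped the healthy range. Of the 10 differences 9 were positive, with a median of 0.67 against -0.12 over all genes. None was called (0 of 10 by edgeR, DESeq2 and limma, with 0.0679% of all genes called by edgeR), 1 had an unadjusted edgeR p under 0.05 (5.86% of all genes), and 2 were above without overlap (4.06% of all genes).

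From day 4 to day 10, S100a6 in control rats went from the levels above to 145, 94.6 and 147 CPM, below every rat at day 4 and every healthy rat. The log2 difference from day 4 was -2.17 with an SE of 0.59 (edgeR adjusted p = 0.184). Of all 14720 genes, 1267 were below healthy without overlap at day 10. S100a10 (343, 178 and 269 CPM) and Anxa1 (322, 119.8 and 217 CPM) were also below day 4 in every rat, which made 3 of 10 genes, against 5.43% of all genes. None was called by edgeR (0 of 10, 0.387% of all genes) and 3 had an unadjusted p under 0.05 (7.5% of all genes), S100a6, S100a10 and Anxa2. DESeq2 called 1, S100a6, at a background of 10.7%, and limma 0. Against healthy rats at day 10, 0 of 10 were called by edgeR (0% of all genes), DESeq2 or limma, and 0 had an unadjusted edgeR p under 0.05.

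**Figure D3:**
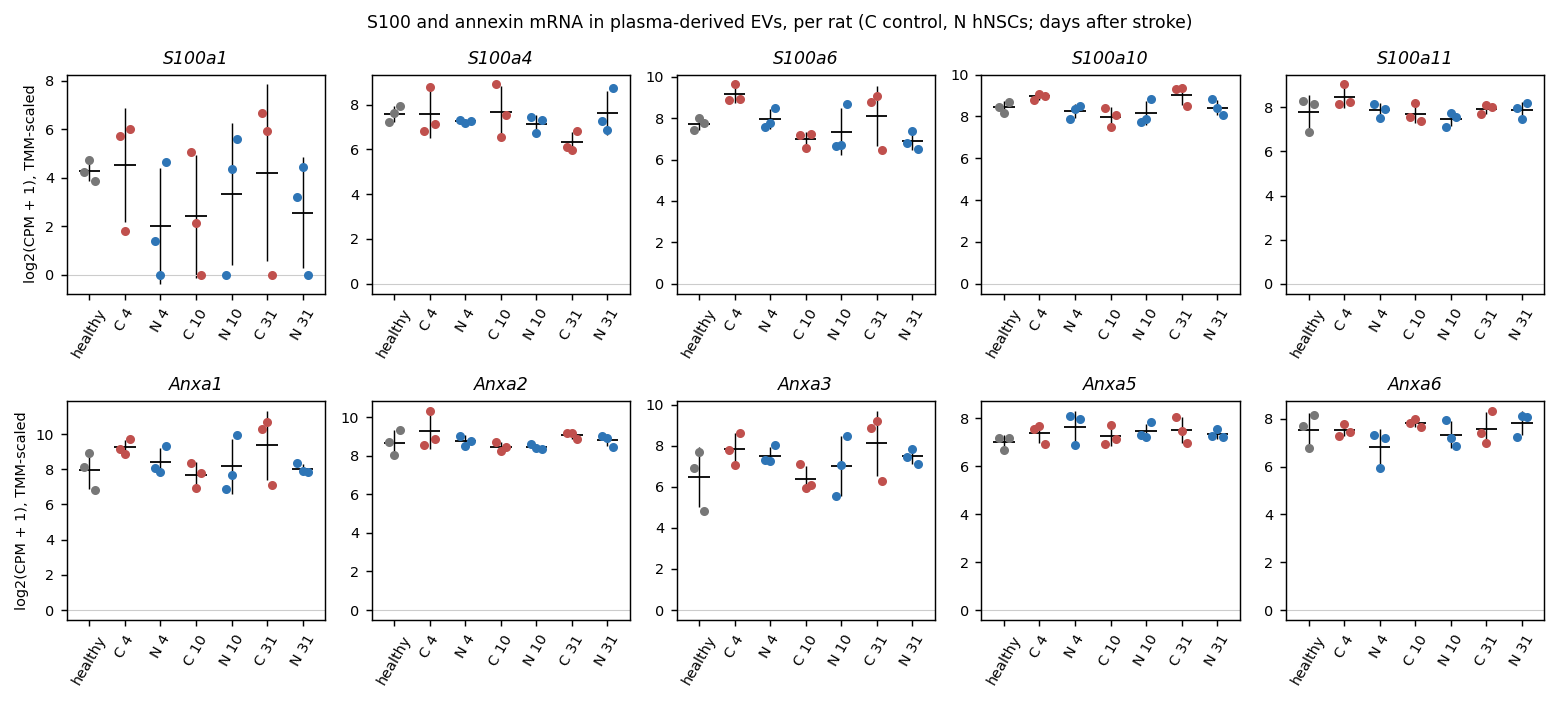
Each panel is 1 gene in plasma-derived EVs, drawn as for the brain: points are rats, the y axis is log2(CPM + 1), and lines and whiskers are the mean and SD of 3 rats. S100a6 lies higher in the 3 control rats at day 4 (470.1 to 788 CPM) than in the 3 at day 10 (94.6 to 147 CPM), and Anxa1 and Anxa3 split the control rats at day 31.

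At day 31 the plasma of control rats split. Anxa1 was at 1263, 1617 and 134 CPM, Anxa3 at 465, 578 and 77.1 CPM and S100a6 at 445, 534 and 86.3 CPM, with rat 3 low for all of them. S100a4 ran the other way, at 68.5, 61.6 and 113 CPM against 149, 194 and 243 CPM in healthy rats, and every control rat was below every healthy rat (log2 difference -1.27, SE 0.59, edgeR adjusted p = 0.844). Of all 14720 genes, 1154 were below healthy without overlap. None was called against healthy (0 of 10 by edgeR, DESeq2 and limma, 0% of all genes by edgeR) or against day 4 (0 of 10 by all of them, 0.17% of all genes by edgeR). Against healthy, 3 had an unadjusted edgeR p under 0.05 (4.75% of all genes): S100a4, Anxa1 and Anxa3. Against day 4, S100a4 alone did, with an unadjusted edgeR p of 0.0189.

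Plasma of hNSC rats at day 4 held S100a6 at 192, 218 and 362 CPM and S100a10 at 237, 329.5 and 367 CPM, below every control rat of that day, with log2 differences of -1.18 (SE 0.57) and -0.68 (SE 0.36). Of all 14720 genes, 642 were below control without overlap in this comparison. None was called (0 of 10 by edgeR, DESeq2 and limma, 0.00679% of all genes by edgeR), and 0 had an unadjusted edgeR p under 0.05. At day 10, rat 3 of the hNSC group was high for Anxa1 (118, 202 and 973 CPM), Anxa3 (45.2, 133 and 352 CPM) and S100a6 (99.1, 104 and 406 CPM), and 0 of 10 were called by edgeR (0% of all genes), DESeq2 or limma, with 0 at an unadjusted p under 0.05.

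At day 31, S100a4 was higher in every hNSC rat (153, 117 and 421 CPM) than in any control rat, with a log2 difference of 1.51 and an SE of 0.59 (edgeR adjusted p = 0.522). Of all 14720 genes, 677 were above control without overlap. S100a6 was at 109, 164 and 90.2 CPM in hNSC rats and Anxa1 at 326, 240.0 and 229 CPM, log2 differences from control of -1.55 (SE 0.58) and -1.92 (SE 0.78), with overlap through control rat 3. None was called by edgeR (0 of 10, 0% of all genes), 3 had an unadjusted p under 0.05 (8.57% of all genes), DESeq2 called 1, S100a6, at a background of 11.9%, and limma 0. Between days, the hNSC difference in plasma differed for 0 of 10 members in each of the 3 pairs by edgeR (0.00679% of all genes for days 10 and 4, 0.00679% for days 31 and 4 and 0% for days 31 and 10). Of 30 tests 5 had an unadjusted p under 0.05, and DESeq2 called S100a6 and Anxa1 between days 31 and 10 (adjusted p = 0.0373 and 0.0324), where it called 14.4% of all genes.

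Blood cell markers moved in plasma over the same groups. Red cell markers summed to 43437 to 79049 CPM in healthy rats, 11650 to 21378 in control rats at day 4 and 146529 to 155991 at day 10, an order opposite to that of S100a6 in these 3 groups. In hNSC rats at day 4 the sum was 5441 to 12828 CPM, with S100a6 at 192 to 362 CPM, below control rats of that day. Control rats at day 31 had sums of 55752, 81978 and 151257 CPM, highest in rat 3, where S100a6 was lowest (86.3 CPM). In hNSC rats at day 10 the sums were 311314, 274960 and 103181 CPM, lowest in rat 3, where S100a6 was highest (406 CPM). In control rats at day 10, by contrast, rat 3 was highest for both, at 155991 and 147 CPM. Of the 6 red cell genes, Alas2 was called lower at day 4 and 4 were called higher at day 10 than at day 4. Neutrophil markers summed to 87.5 to 194 CPM in healthy rats, 476 to 2135 at day 4 and 139.6 to 322 at day 10, with 0 of 6 called at day 4 by edgeR and 1 at an unadjusted p under 0.05. By rat, their sum was 91.5, 38.4 and 282 CPM in control rats at day 31, highest in rat 3, where S100a6 was lowest. In hNSC rats at day 10 it was 167, 573 and 91.9 CPM, lowest in rat 3, where S100a6 was highest. Macrophage markers summed to 139 to 186 CPM in healthy rats, 339 to 971 in control and 286 to 301 in hNSC rats at day 4. In control rats at day 31 the sum was 252, 362 and 111 CPM, lowest in rat 3. In hNSC rats at day 10 it was 96.7, 162 and 285 CPM, highest in rat 3. The fibroblast or meningeal sum in these groups was 3799, 3475 and 629 and 1043, 1161 and 3784 CPM. At day 4 it was 2336, 259 and 921 CPM in control rats, lowest in rat 2, where S100a6 was highest. With the 9 hemoglobin genes left out of the library sizes and tests, 0 of 10 members were called in each plasma comparison, as before. The part of any of these cells in the values above was not tested.

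Set side by side in the same rats, plasma EVs held far more of these mRNAs than brain EVs. Mean levels on a common scale over all 42 libraries were 7.19 CPM in brain and 314 in plasma for S100a6, 12.9 and 443 for S100a10, 9.12 and 213 for S100a4, 16.5 and 289 for S100a11, and 14.2 and 549.5 for Anxa1. All 21 rats had more in plasma for each of these and for Anxa2 (36.0 and 552 CPM) and Anxa5 (52.6 and 201 CPM). The per-rat log2 difference was largest for S100a6, at 6.19 ± 1.59 (SD, n = 21), and for Anxa1, at 6.15 ± 2.33.

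Anxa3 and Anxa6 differed least among the called genes. Anxa3 was higher in plasma in 19 of 21 rats (fitted log2 difference 1.77, SE 0.32) and Anxa6 in 20 of 21 (1.09, SE 0.18). S100a1 was higher in 14 of 21 rats and was not called (1.82, SE 0.94, edgeR adjusted p = 0.103). In all, 9 of 10 members were called, each of them higher in plasma, where 54.3% of all 16945 genes tested were called and 25.3% were called higher in plasma. Tissue and EV isolation differ together between these libraries and cannot be told apart.

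The rest of the families showed that the direction was not shared by every S100 gene. S100b, the astrocyte S100, went the other way, at 402 CPM in brain and 3.57 in plasma, and was higher in brain in all 21 rats. S100a9 and S100a8, the subunits of neutrophil calprotectin, were at 303 and 43.3 CPM in plasma and close to 0 in brain, at 0.392 and 0.0114 CPM. Anxa4 (28.9 and 97.7 CPM), Anxa7 (30.6 and 137), Anxa11 (52.7 and 146), S100a13 (13.8 and 38.5), S100a16 (12.9 and 40.4) and Anxa8 (0.313 and 33.5) all had the higher mean in plasma.

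**Figure D4:**
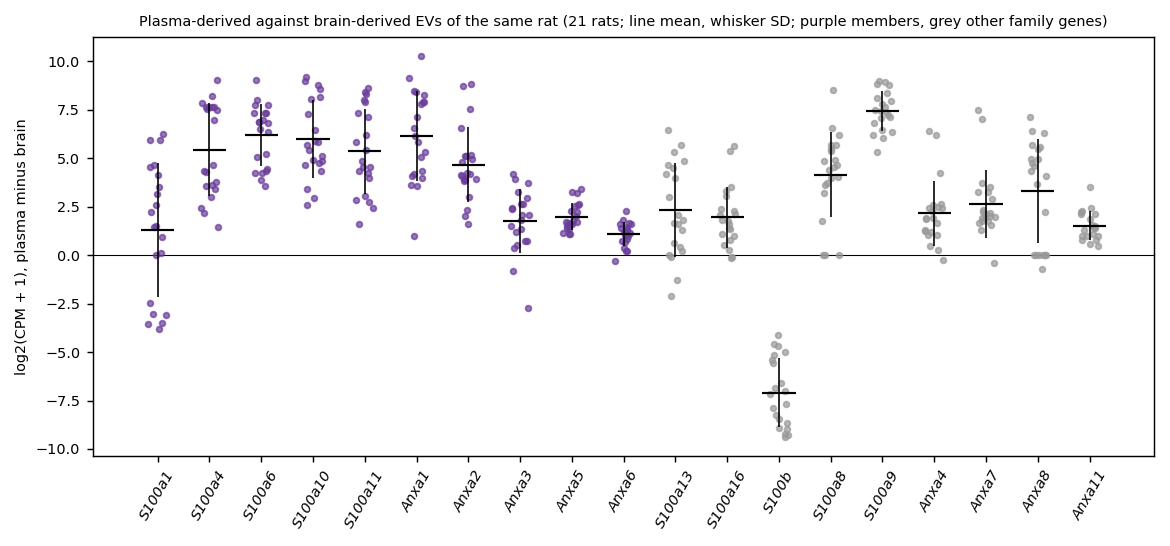
Each point is 1 of 21 rats, and the y axis is the log2(CPM + 1) of a gene in plasma-derived EVs minus that in brain-derived EVs; lines and whiskers are the mean and SD, purple marks the 10 genes and grey the other S100 and annexin genes with a mean of 5 CPM or more in either tissue. The points of S100a6 lie between 3.58 and 9.02, and those of S100b between -9.36 and -4.11.

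Levels of different genes were compared per length, as TPM, the deposited FPKM rescaled to 1 fixed total over annotated genes in each library. In brain EVs the median over 21 libraries ran from 134 TPM for Anxa6, 116 for Anxa5, 83.3 for Anxa2, 54.4 for S100a10, 54.2 for Anxa3, 41.7 for S100a11, 37.7 for S100a1, 22.0 for S100a4 and 11.5 for S100a6 down to 3.19 for Anxa1. Neighbours in this order were hardly apart: Anxa6 exceeded Anxa5 in 11 of 21 libraries, S100a10 exceeded Anxa3 in 10 and Anxa5 exceeded Anxa2 in 16. S100b stood far above them, at 877 TPM. The order differed by group: in control rats at day 4 the mean TPM was 231 for S100a6, 219 for S100a11, 193 for S100a10 and 179 for S100a4, above Anxa5 (138) and Anxa6 (137).

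In plasma EVs the order was led by the S100 genes. The medians were 716 TPM for S100a10, 651 for S100a6, 531 for S100a11, 380 for S100a4, 378 for Anxa2, 219 for Anxa1, 135 for Anxa5, 78.0 for Anxa6, 69.2 for Anxa3 and 31.4 for S100a1. S100a10 exceeded S100a6 in 13 of 21 libraries, S100a6 exceeded S100a11 in 12 and S100a4 exceeded Anxa2 in 8, so these neighbours were not separated. Anxa5 exceeded Anxa6 in 18 of 21 and Anxa1 exceeded Anxa5 in 17. Anxa6, which led the order in brain, stood below 7 of the others in plasma.

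The level of each gene in brain EVs was also set against its level in plasma EVs of the same rat. Over 21 rats, S100a6 had the highest Pearson r of the 10, 0.56 (permutation p = 0.00845, adjusted p = 0.964 over 12885 genes), with a Spearman rho of 0.45 (permutation p = 0.0442, adjusted p = 0.905). Without the 2 rats farthest from the median in brain r was 0.36, and with values centred within the 7 groups it was 0.25. For the other 9 genes r lay between -0.30 (S100a4) and 0.42 (Anxa6). None of the 10 was called, 1 had an unadjusted p under 0.05, and 0% of all genes were called.

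Among themselves the genes moved together in brain EVs. Over the 21 brain libraries the 45 pairs had a median Pearson r of 0.58 (0.14 to 0.91), and the pair S100a10 and S100a11 was the closest, at 0.91 and at 0.87 with values centred within groups. The 15 pairs among S100a4, S100a6, S100a10, S100a11, Anxa1 and Anxa2 had a median of 0.75. The libraries share depth and undetected genes, so these values are a description. The non-member genes whose log2 CPM was most like the mean of the 10 were Rps29, Tpt1, Serpinb1a, Ybx1 and Ctsc, at r of 0.91 to 0.93 over 21 libraries among 11932 candidates whose median r was 0.22.

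In plasma EVs the genes fell apart. The 45 pairs had a median r of 0.25 (-0.52 to 0.92). Anxa1 and Anxa3 were the closest pair, at 0.92, and Anxa3 was the gene most like Anxa1 among 14719 genes. Anxa1 also ran with S100a6 at 0.81, whereas Anxa3 and Anxa6 were at -0.52. The genes most like the mean of the 10 in plasma were Lgals3, Mnda, Aim1, Hdlbp and Glud1, at r of 0.74 to 0.81 among 10779 candidates whose median r was 0.03.

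**Figure D5:**
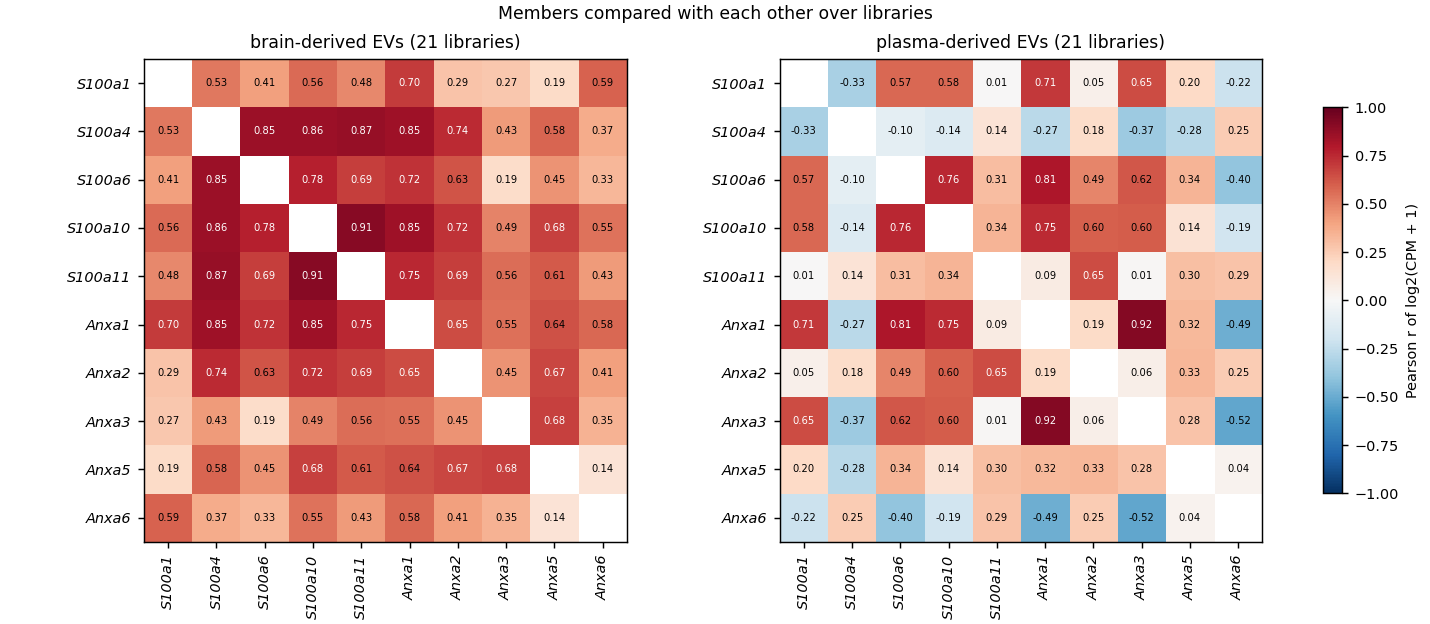
Each cell is the Pearson r of log2(CPM + 1) between 2 of the 10 genes over 21 brain libraries (left) or 21 plasma libraries (right), on a colour scale from -1 to 1. Brain values are all above 0 (0.14 to 0.91), and plasma values run from -0.52 to 0.92.

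Some counts of these genes may include reads of close copies. RefSeq lists 5 pseudogenes and 2 like genes for S100a11, 8 pseudogenes for Anxa2 and 1 for S100a10 in GRCr8, and how the deposited counting treated reads that match several places is not given in the sources used here. All 5 S100 members lie on rat chromosome 2, with S100a1, S100a4 and S100a6 in the run that also holds S100a8 and S100a9, and with S100a10 and S100a11 as direct neighbours among the protein-coding genes. The annexin members lie apart from each other, on chromosomes 1 (Anxa1), 8 (Anxa2), 14 (Anxa3), 2 (Anxa5) and 10 (Anxa6).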

How the data were processed

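Of the 84 libraries of the series, the 42 long-RNA libraries were used, 21 from brain-derived EVs and 21 from plasma-derived EVs (the extraction text of the labels calls the blood fraction serum). The 10 members and all gene lists were chosen with earlier results of these data known. RNA was extracted with the miRNeasy Advanced Kit and made into SMARTer Stranded (total RNA) libraries, which carry no molecular identifiers here, so counts cover counting error only and intervals cannot account for PCR copies. The authors cleaned reads with in-house scripts and aligned them to Rnor_6.0 with Bowtie2. The deposited counts are raw whole-number read counts per gene, and the deposited FPKM values were made by the authors with StringTie, summed over transcripts. The counting tool, its strand setting and tool versions are not given in the sources used here. The deposited tables held 0 columns of other samples, and no column of the authors' own comparisons was used. The 7855 unannotated features of the count table were left out of library sizes and tests.

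Counts were tested with edgeR 4.0.16 (R 4.3.3): TMM scaling, filterByExpr by group, 1 quasi-likelihood model of the 7 groups per tissue (14515 brain and 14720 plasma genes tested, all 10 members in both), and for plasma against brain 1 model of 14 groups. A call needed an adjusted p (Benjamini-Hochberg, over all genes tested) below 0.05 and a change above 1.5-fold. SE is the absolute log2 difference divided by the square root of F. Where a group had 0 counts, the fold was computed against 3 counts summed over that group and is a minimum. Brain and plasma of a rat were correlated with two-sided permutation tests (100000 resamples). Every member was named. Other family genes were named at a mean of 5 CPM or more in either tissue, listed genes where called, and the 5 genes most like the members' mean by Pearson r. Ages, strain and surgery come from the study's methods, sequences from RefSeq (GRCr8).

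Replicates are different rats. The deviations of same-numbered rats correlated over 0.1 in each pair only for hNSCs against control at day 31 in brain (r 0.25, 0.28 and 0.33), so only there do the numbers pair libraries. No 2 libraries of a group agreed within counting error (lowest chi-square per gene 14.0 in brain and 89.8 in plasma). Alternatives were RLE size factors, limma-trend (3.58.1) on log2 of FPKM plus 1 or plus 0.1, DESeq2 (1.42.0), no filter, only the 2 groups, a replicate block, unannotated features kept, hemoglobin genes left out and each library left out. The scripts were tested on simulated data with known changes. For counts, these changes lay in genes with higher mean levels than the S100 members had in brain. No gene was set to 0 in a group, so the simulation does not cover that setting.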

Additional observations from a re-analysis of the deposited data

Results flagged for a closer look

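S100a4 differed in opposite directions in the EVs of the same rats at day 31, and this difference between tissues was not tested. In plasma EVs every control rat was below every healthy rat, with a fitted log2 difference of -1.27 (81.1 ± 28.0 against 196 ± 47.1 CPM, SD, n = 3 each). In brain EVs every control rat was above every healthy rat, since all 3 healthy rats had 0 counts, and the control group was at least 26.1-fold higher. With 0 counts in healthy rats the brain difference could not be negative, so the opposite direction was partly fixed in advance. Over all genes, 1154 of 14720 were below healthy without overlap in plasma, and 18.9% were above without overlap in brain.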

How the results depend on the processing

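The 9 calls for plasma against brain held under each alternative, with 9 to 10 members called when 1 rat was left out, whereas the 2 calls of S100a11 against healthy in brain did not. In brain at day 4 against healthy (1 member called), DESeq2 called 4, a fit of only the 2 groups 5, limma 4 on log2(FPKM + 1) and 5 on log2(FPKM + 0.1), and leaving out 1 library gave 0 to 1. At day 10 (1 called), DESeq2 called 4, no filter 2, and 0 were called with only the 2 groups, with limma on either scale, with unannotated features kept, or, chosen after seeing the data, without the 5 brain libraries under 2000000 annotated counts. Leaving out 1 library gave 0 to 3. At day 31 (0 called), DESeq2 called 2 and limma 10 on either scale. DESeq2 called 1 from day 4 to 10, 1 for hNSCs at day 10 and 2 for the hNSC difference between days in brain, and in plasma 1 from day 4 to 10, 1 for hNSCs at day 31 and 2 for the difference between days, all 0 by edgeR. In brain limma on log2(FPKM + 0.1) called 1 from day 4 to 10. From day 4 to 31, limma on log2(FPKM + 1) and the fit of only the 2 groups each called 1. The cause of these shifts was not tested.

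With the replicate number as a block, the day 10 call of S100a11 in brain was lost (0 members, adjusted p = 0.0898), and no other count of called members changed. In that comparison the rats share only a number. For hNSCs at day 31 in brain, where the numbers paired libraries, 0 members were called with and without the block. The block fitted the number as an effect shared by all 7 groups, although the numbers paired libraries only in this comparison. It therefore cannot show whether that pairing changes the result.

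The other counts stayed within 1.5 times: 132 of 156 counts under alternatives and 163 of 174 with 1 library left out. The 2 calls of S100a11 were kept in 12 of 17 alternatives and in 2 of 12 with 1 library left out, and the 9 calls for plasma against brain in 54 of 54 and 189 of 189. Of 1416 differences of members not called under alternatives, 49 did not keep the sign of the main fit. The counts on annotated genes limit what can be detected of the S100 genes in brain.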

Other observations

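The other S100 and annexin genes added a few patterns in brain and blood. S100b was present in all brain libraries, at 316 ± 59.5 CPM (SD, n = 3) in healthy rats and 618 CPM on average in control rats at day 31 (log2 difference 0.97, SE 0.31, edgeR adjusted p = 0.483), and every control rat at days 10 and 31 was above every healthy rat. At day 10 it was lower in every hNSC rat than in any control rat (means of 330 and 584 CPM, log2 difference -0.82, SE 0.31, edgeR adjusted p = 0.326). In that comparison the median gene had a log2 difference of -0.34, and the hNSC libraries were the brain group with the lowest annotated share. In plasma, S100a9 averaged 848 CPM in control rats at day 4 and 87.7 CPM in healthy rats (log2 difference 3.27, SE 0.82, edgeR adjusted p = 0.274), and 201 CPM in hNSC rats at day 4. Anxa7 in plasma was higher in every control rat than in any healthy rat at day 4 (144 and 75.3 CPM on average, log2 difference 0.93, SE 0.34, edgeR adjusted p = 0.742). None of these passed the threshold. Over all genes, 7.05% and 18.9% were above healthy without overlap in brain at days 10 and 31. In hNSC brain EVs at day 10, 7.06% were below control without overlap, and in plasma at day 4, 4.06% were above healthy.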
